A study of Homo sapiens with 4 samples.

Results

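Hub anchors were the 5 kb stretches of the genome that took part in the most H3K27ac loops of M14 melanoma cells. An anchor was called a hub when 10 or more loops ended in it in the WT list or in the STAG2-KD list, so the hubs were chosen by their loop numbers, which are given as a description. By this rule 649 of 30601 anchors were hubs (2.12%), 483 of them by the WT list and 393 by the STAG2-KD list. At the edge of the rule, 174 anchors had exactly 10 loops in the list where they had more, and 252 anchors had 9.

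M14 is an established human melanoma line, and the cells used here held a short hairpin RNA that targets STAG2 and is switched on by doxycycline. Both groups held this construct: WT cells were grown without doxycycline for 5 days, and STAG2-KD cells were grown with it for the same time. In HiChIP, chromatin ends in contact are ligated and then enriched with an antibody, here against acetylated lysine 27 of histone H3. The labels gave 4 samples, 2 per group, and 1 loop list per group was analysed, of 27289 loops in WT and 25621 loops in STAG2-KD. Doxycycline was given to only 1 group, so its own effect cannot be told apart from that of the hairpin. The lists gave the positions of loops without read numbers, so the depth behind a loop was unknown. With 1 list per group, every contrast of WT with STAG2-KD stands without a replicate check. Loop positions do not measure STAG2 RNA or protein, so the knockdown itself could not be checked here. STAG2 lies on the X chromosome and the lists covered the autosomes only, so loops at its gene were not seen either. Of 9 melanocytic marker genes, 7 had loops at a transcript start, among them MITF (7 loops in WT, 2 in STAG2-KD), SOX10 (4 and 4) and TFAP2A (8 and 7), while MLANA and TYR were at 0 in both lists. All 10 keratinocyte, lymphocyte and endothelial markers were at 0.

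Cohesin is a ring-shaped complex that extrudes chromatin into loops, and it carries either STAG1 or STAG2 as a subunit. Loop extrusion tends to halt at CTCF bound to its motif, which points into the loop. Acetylated H3K27 marks active promoters and enhancers, so a loop in these lists joins stretches of chromatin of which at least 1 is likely to be such an element, and an anchor with many loops is one that several elements reach.

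The first 5 sequences are shown for their CTCF core motif, and were chosen from the hubs with 1 match where every loop of both lists left towards the side to which the motif pointed, leaving out matches near exons. They are 72 bases each on the plus strand of hg19, with the motif in capitals. The first 4 have it on the plus strand and the last has it on the minus strand, where it reads in reverse.
ZNF217 hub, chr20:52195450-52195521: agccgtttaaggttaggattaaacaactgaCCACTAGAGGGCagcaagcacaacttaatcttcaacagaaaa
CYB5B hub, chr16:69430078-69430149: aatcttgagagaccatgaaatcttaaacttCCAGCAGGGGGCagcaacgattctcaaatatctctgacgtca
LINC00920 start hub, chr16:66440507-66440578: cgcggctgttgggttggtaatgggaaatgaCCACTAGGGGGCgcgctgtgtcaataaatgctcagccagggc
PARVA gene body hub, chr11:12433981-12434052: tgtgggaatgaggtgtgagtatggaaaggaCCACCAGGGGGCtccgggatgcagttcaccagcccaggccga
PRSS23 gene body hub, chr11:86529674-86529745: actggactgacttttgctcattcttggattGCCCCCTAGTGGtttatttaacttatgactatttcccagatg

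The next 3 sequences, from hubs without a transcript start, are shown for their matches to the AP-1 motif TGANTCA, which is its own reverse complement, so that 1 strand holds all matches. These windows of 120 bases are on the plus strand of hg19 and overlap no exon. They come from hubs with many loops for which such a window held at least 2 matches. They are examples and no ranking of all hubs, and other hubs with more loops may hold such a window. The matches are in capitals.
Intergenic hub between BMP7 and TFAP2C, chr20:55560510-55560629: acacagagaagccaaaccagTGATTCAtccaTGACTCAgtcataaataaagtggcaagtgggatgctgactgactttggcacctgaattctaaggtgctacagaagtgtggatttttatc
DOCK4 gene body hub, chr7:111572584-111572703: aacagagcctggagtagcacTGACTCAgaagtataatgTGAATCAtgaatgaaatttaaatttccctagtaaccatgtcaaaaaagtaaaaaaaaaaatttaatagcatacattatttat
CDC42EP3 gene body hub, chr2:37868735-37868854: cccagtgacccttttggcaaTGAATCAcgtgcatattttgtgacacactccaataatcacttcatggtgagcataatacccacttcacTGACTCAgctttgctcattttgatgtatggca

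The largest hub in both lists was the promoter of TRIB2, a pseudokinase of the Tribbles family, at chr2:12855001-12860000. It had 44 loops in WT and 42 loops in STAG2-KD, of which 27 were present in both lists. Of its loops, 35 in WT and 31 in STAG2-KD ran to the left, into the gene-poor stretch between LPIN1 and TRIB2. The second hub lay in that stretch, at chr2:12455001-12460000, 400 kb from the nearest coding start, with 43 loops in WT and 35 in STAG2-KD. At chr2:11970001-11975000, the start of the noncoding gene MIR3681HG, every loop ran to the right, 28 in WT and 26 in STAG2-KD. These 3 hubs kept their loop numbers to within 8 between the lists.

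Next by WT loops came chr8:130695001-130700000, at a start of the noncoding gene CCDC26, with 34 loops in WT and 25 in STAG2-KD. Of its WT loops 33 ran to the left, the side of MYC, which encodes a growth-promoting transcription factor and whose own promoter hub had 25 loops in each list with 13 shared. The hub at chr1:117030001-117035000 had 33 loops in WT and 30 in STAG2-KD and lay 54.7 kb from the start of CD58, a ligand of CD2 on T cells. Its partners in both lists included the starts of CD58, IGSF3 and TTF2. The hub at chr2:12305001-12310000, in the stretch before TRIB2, had 25 and 19 loops and reached TRIB2 in both lists. At chr13:80510001-80515000, 401 kb from SPRY2, 24 loops in WT and 19 in STAG2-KD were found, and the SPRY2 start was a partner in both lists.

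Of the 10 hubs with the most STAG2-KD loops, 4 were not among the leading 10 of the WT list, and these 4 differed by at most 7 loops between the lists. The hub inside PLA2G6 at chr22:38570001-38575000 had 22 loops in each list, 17 of them shared, and reached the starts of SOX10, MAFF, CSNK1E and DDX17 in both. SOX10 encodes a melanocyte lineage transcription factor. The hub at chr20:55560001-55565000 had 20 loops in WT and 24 in STAG2-KD and reached AURKA, a mitotic kinase, and TFAP2C in both lists. The hub at chr2:62635001-62640000 had 15 loops in WT, all to the left, and 22 in STAG2-KD, 5 of them to the right. A hub inside DOCK4 (chr7:111570001-111575000) held 23 loops in WT and 21 in STAG2-KD, but only 7 were the same loops.

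**Figure D1:**
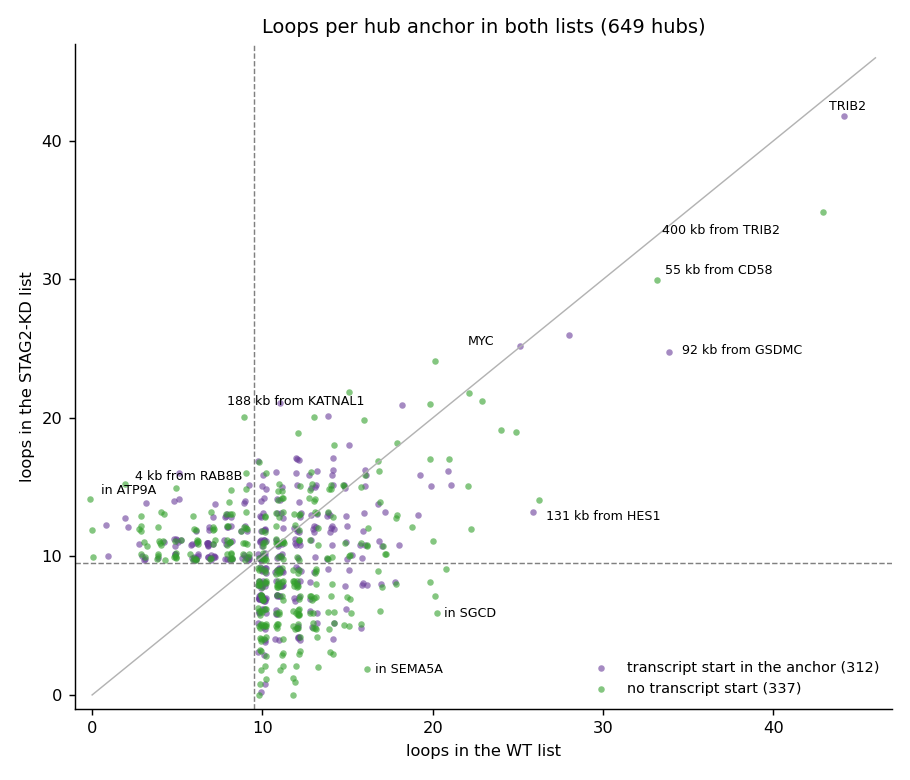
Loops per hub anchor in the WT list (x axis) and in the STAG2-KD list (y axis), 1 point per hub with a small random shift, coloured by whether a transcript start lay in the anchor. Dashed lines mark the limit of 10 loops and the grey line marks equal numbers. TRIB2 sits at 44 and 42 loops, and the empty lower left corner is the result of the rule.

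Of the 649 hubs, 227 reached 10 loops in both lists, which was 47.0% of the WT hubs and 57.8% of the STAG2-KD hubs. The 256 hubs of the WT list alone still had a median of 7 loops in STAG2-KD, and 142 of them had 7 to 9. The 166 hubs of the STAG2-KD list alone had a median of 7 loops in WT, and 89 of them had 7 to 9. Only 3 hubs on each side had no loop at all in the other list. Over all hubs, 298 (45.9%) had loop numbers within 3 of each other in the 2 lists.

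Summed over all hubs, 7206 loop ends in WT stood against 6615 in STAG2-KD, a ratio of 0.918, beside 0.939 for all loops. The ratio followed the list used for the choice: 0.769 for hubs of the WT list, 1.18 for hubs of the STAG2-KD list and 0.975 for the 227 hubs of both. At least 2 times as many loops in STAG2-KD were found at 59 hubs (9.09%), where 17.4% of the anchors with 5 to 9 loops had such a change. At least 2 times as many in WT were found at 110 hubs (16.9%), where 22.4% of the anchors with 5 to 9 loops did. These shares follow from the loop numbers that chose the hubs and describe them only.

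The 5 largest losses were all at hubs without a coding start. A hub inside SEMA5A, the gene of a guidance molecule, at chr5:9155001-9160000 went from 16 loops to 2. A hub inside SGCD, a sarcoglycan gene, at chr5:156015001-156020000 went from 20 to 6. A hub at chr3:193720001-193725000, which holds a start of the noncoding gene LINC02026, went from 26 to 13 and kept its loop to HES1, a repressor downstream of Notch. A hub 302 kb from TFAP2C (chr20:55505001-55510000) went from 20 to 7, only 55 kb from the hub described above that had more loops in STAG2-KD. The fifth, at chr8:130325001-130330000, went from 26 to 14 and reached MYC in both lists.

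The 5 largest gains included 2 anchors that had no loop in WT. Inside ATP9A, a flippase gene, chr20:50245001-50250000 had 0 loops in WT and 14 in STAG2-KD, and chr20:49650001-49655000, 12.9 kb from KCNG1, had 0 and 12. Both reached the start of NFATC2, a calcium-regulated transcription factor, in STAG2-KD. An intergenic anchor 4.30 kb from RAB8B (chr15:63475001-63480000) had 2 loops in WT and 15 in STAG2-KD, with new loops to TPM1, the gene of a tropomyosin, and to APH1B and LACTB. The anchor at chr13:30690001-30695000 went from 9 to 20 loops and reached HMGB1, a chromatin protein, and USPL1 in both lists. The promoter of the histone gene H2BC6 (chr6:26170001-26175000) went from 5 loops to 16 and gained 15 partner genes, most of them other histone genes.

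**Figure D2:**
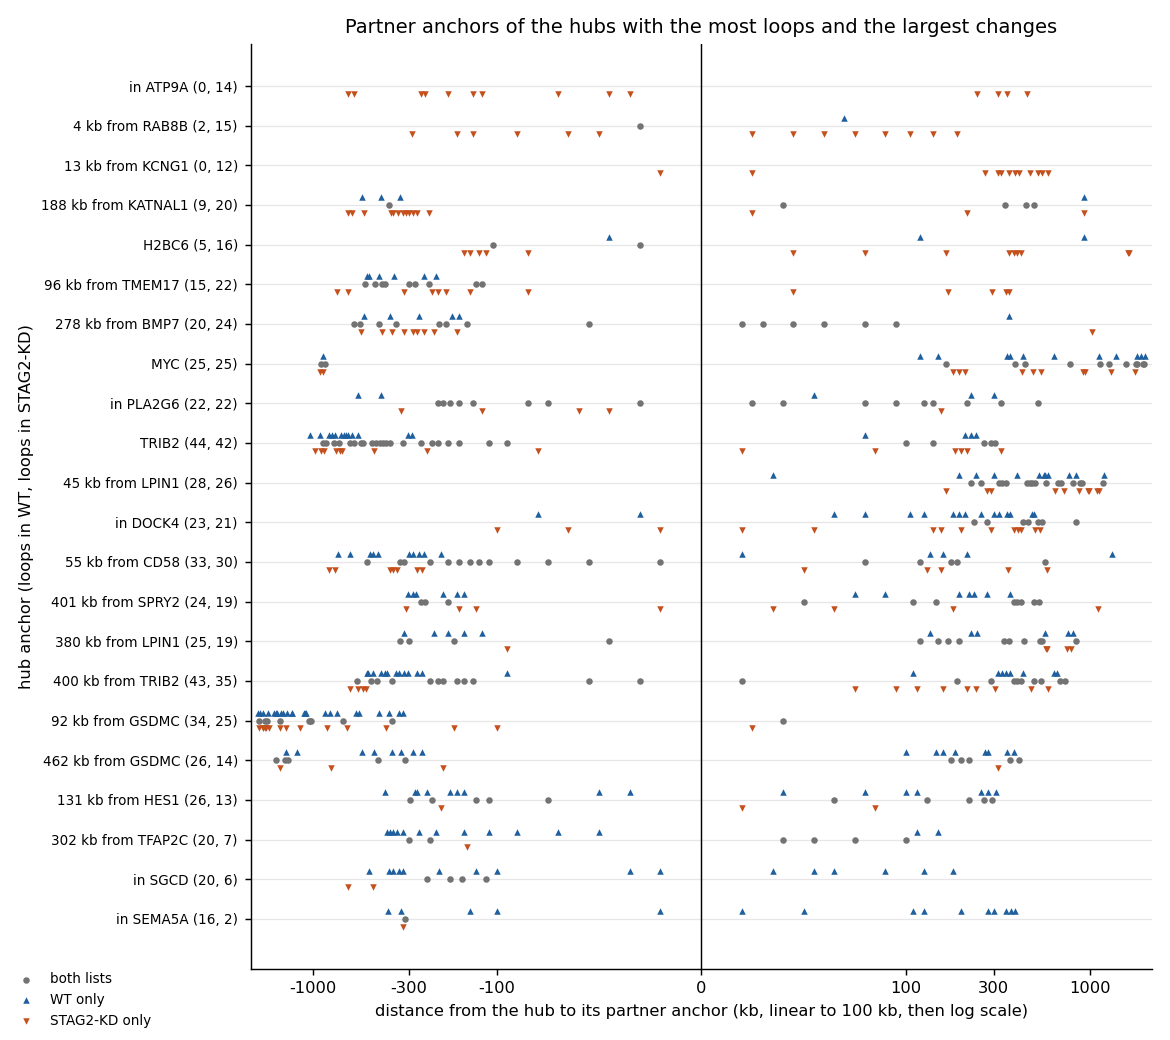
Partner anchors of the hubs with the most loops and of those with the largest gains and losses, by distance from the hub in kb (x axis, linear to 100 kb and logarithmic beyond), with 1 row per hub and the loops in WT and STAG2-KD in brackets. Grey circles are loops of both lists, blue triangles WT only and orange triangles STAG2-KD only. The hub 45 kb from LPIN1 has partners only to the right, and the rows in SEMA5A and in ATP9A are almost all blue and all orange.

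A transcript start of any gene lay in 312 hubs (48.1%, exact 95% interval 44.2 to 52.0), and a start of a protein-coding gene in 216 of these. The other hubs lay in the body of a protein-coding gene (167) or outside such genes (170). The share with a start was 33.3% at anchors with 1 loop, 42.8% at 2 to 4 loops and 50.0% (48.3 to 51.8) at 5 to 9 loops, and then 48.3% (43.9 to 52.8) at 10 to 14 and 47.1% (38.6 to 55.8) at 15 or more. It was therefore higher from 5 loops on than at 1 loop, and was no higher in hubs than in the class just under them. Hubs without a coding start lay farther from one: the median distance was 27.3 kb at 1 loop, 35.5 kb at 5 to 9 loops, 46.9 kb at 10 to 14 and 75.6 kb at 15 or more. All intervals here cover counting error only, and neighbouring anchors are not independent.

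Summed over the 312 promoter hubs, 3410 loop ends in WT stood against 3316 in STAG2-KD, a ratio of 0.972, and over the 337 other hubs 3796 stood against 3299, a ratio of 0.869. Hubs of the WT list alone made up 34.0% (28.7 to 39.5) of the promoter hubs and 44.5% (39.1 to 50.0) of the others, with intervals that just overlap. Hubs of the STAG2-KD list alone made up 26.6% (21.8 to 31.9) and 24.6% (20.1 to 29.6), which overlap widely. At single promoter hubs the order went both ways, with more loops in WT at 157 and more in STAG2-KD at 132. These sums come from the loop numbers that chose the hubs, and are a description.

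AP-1 factors such as JUN and FOS bind TGANTCA, and hubs without a transcript start held this motif more often than anchors with few loops. Among anchors without a start, at least 1 match was found in 82.9% (82.1 to 83.6) at 1 loop, 84.9% (84.0 to 85.8) at 2 to 4 loops, 88.3% (86.6 to 89.9) at 5 to 9 loops, 93.2% (89.4 to 95.9) at 10 to 14 and 90.4% (81.2 to 96.1) at 15 or more. The interval at 5 to 9 loops, the class just under hubs, overlaps those of both hub classes. Hubs without a start held a mean of 2.42 matches (SD 1.51, 337 hubs), against 2.23 (SD 1.59) at 5 to 9 loops and 1.85 (SD 1.43) at 1 loop. The GC content of hubs without a start, 43.2%, was close to the 43.1% of such anchors at 2 to 9 loops. Over all 30601 anchors of the same length, 80.6% held a match. Within these hubs, the mean number of matches was 2.68 (SD 1.62, n = 104) in hubs of both lists, 2.10 (SD 1.32, n = 150) in hubs of WT alone and 2.65 (SD 1.60, n = 83) in hubs of STAG2-KD alone. The shares with at least 1 match were 92.3% (85.4 to 96.6), 91.3% (85.6 to 95.3) and 95.2% (88.1 to 98.7), with intervals that overlap. The M-box bound by MITF (TCATGTG or TCACGTG, on either strand), which can share its first 3 bases with the end of an AP-1 match, was found in 66.2% (60.8 to 71.2) of hubs without a start and in 64.1% (63 to 65.2) of such anchors at 2 to 9 loops. The M-box thus showed no difference beyond its interval.

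**Figure D3:**
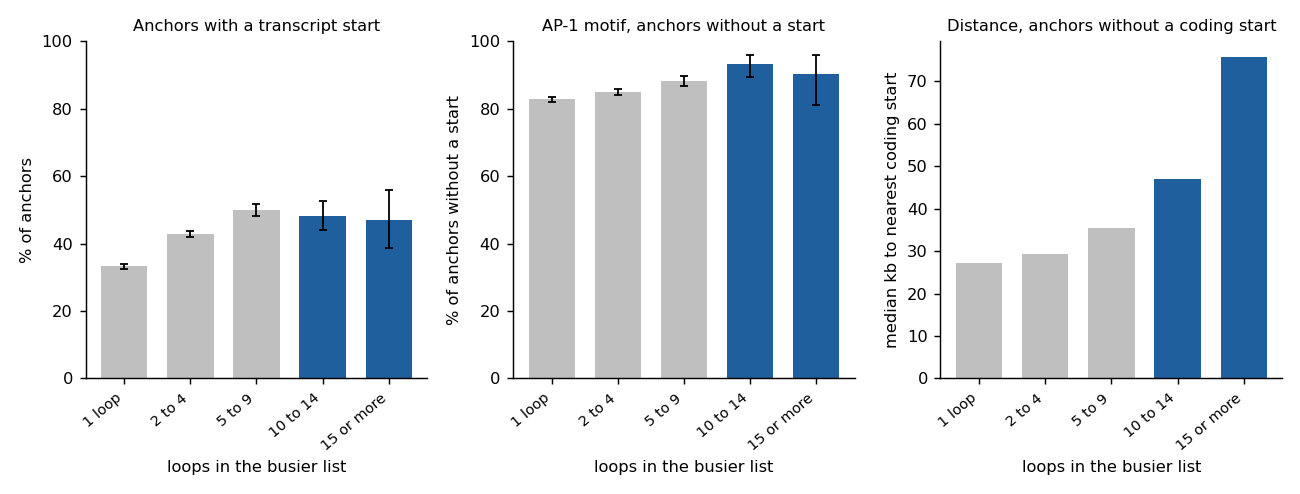
Anchors by the number of loops in the list where they had more (x axis), with hubs in blue: the percent with a transcript start, the percent of anchors without a start that hold the AP-1 motif, and the median distance in kb from anchors without a coding start to the nearest one. Bars carry exact 95% intervals in the first 2 panels. The share with a start is 50.0% at 5 to 9 loops and no higher in hubs, while the distance reaches 75.6 kb at 15 or more loops.

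Loops at hubs were longer and more often found in both lists than other loops. Their median distance was 155 kb in each list, against 80 kb (WT) and 75 kb (STAG2-KD) for loops without a hub. Of the WT loops with a hub at 1 or both ends (6674, 24.5% of the list), 47.4% (46.2 to 48.6) were also in the STAG2-KD list, and of the 6063 in STAG2-KD, 52.2% (50.9 to 53.4) were also in WT. For loops without a hub these shares were 35.0% and 36.9%. Loops between 2 hubs were the most often shared, at 76.9% (73.1 to 80.4) of 532 in WT and 74.1% (70.2 to 77.7) of 552 in STAG2-KD. At promoter hubs 52.6% of WT loop ends and 54.1% of STAG2-KD loop ends belonged to shared loops, and at the other hubs 46.9% and 54.0%. The hubs were chosen on these same loops, so these shares are descriptions.

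Hub loops of both lists had a median distance of 130 kb, those in WT alone of 180 kb and those in STAG2-KD alone of 185 kb. Loops over 500 kb made up 10.5% (9.52 to 11.6) of the 3510 hub loops found in WT alone and 13.6% (12.3 to 14.9) of the 2899 found in STAG2-KD alone. The same order was seen without hubs, at 2.28% and 3.65%. Counted at each hub end, 51.4% of the loops missing from STAG2-KD had a partner that was still an anchor there, and of those missing from WT, 58.4%. A loop of the same hub to the next bin accounted for 8.81% and 10.5% only, so a shift by 1 bin was uncommon.

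In the lists as deposited, the bins right next to hubs seldom held loops. In the WT list, 5.69% (4.32 to 7.35) of the bins 5 kb from a hub had any loop, against 9.18% (8.80 to 9.58) beside anchors with 2 to 9 loops. At 10 kb the shares were close, with 11.4% (9.45 to 13.6) against 11.1% (10.7 to 11.5). At 15 kb the order was the opposite of that at 5 kb, with 33.4% (30.5 to 36.5) against 20.2% (19.7 to 20.8). The STAG2-KD list gave 4.83% and 8.78% at 5 kb, 14.1% and 11.6% at 10 kb, and 30.7% and 19.6% at 15 kb. No hub had loops to 2 bins next to each other in either list: the smallest spacing between partners was 10 kb. This spacing is a property of the lists as deposited, and a loop number therefore counts separated partners rather than neighbouring bins. Whether the way neighbouring loops were treated in the lists lowered the share at 5 kb was not tested.

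The 649 hubs had 7132 distinct partner anchors. A transcript start lay in 33.3% (32.2 to 34.4) of the partners, against 40.1% (39.5 to 40.7) of the anchors of loops without a hub. Partners of promoter hubs held a start more often, with a median over hubs of 42.1%, than those of the other hubs, with 23.5%. At least 1 protein-coding gene started in a partner of 562 hubs (86.6%), with a median of 2 such genes per hub, 4 for promoter hubs and 1 for the others. Of the 293 hubs that lacked a start and reached a gene, 165 (56.3%, 50.4 to 62.1) reached the nearest coding gene. The others reached only genes farther away. At the hubs with the most loops and the largest gains and losses, no partner lay closer than 20 kb. A coding start nearer than that may therefore have been out of reach, as for the hub 4.30 kb from RAB8B. How many of the 293 hubs this touched was not tested. Leaving out genes that were partners only of a hub at their own start, 1536 partner genes remained, of which 70.2% were reached by 1 hub only.

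The genes reached by the most hubs were histone genes and MYC. H2AC8 was a partner of 10 hubs, and MYC, H2BC6, H2BC9, H3C7, H1-4 and H2BC5 of 8 hubs each. MYC was reached by 7 hubs in each list. The histone genes differed among themselves: H1-4 and H2BC5, whose starts lie in 1 and the same hub, were reached by 2 hubs in WT and by 7 in STAG2-KD. H2AC8 was reached by 7 and 8, H2BC10 and H3C8 by 6 and 6, and H2AC7 and H3C4 by 5 and 3. Genes that start in the same anchor share its loops, so genes with equal counts may stand for 1 anchor. Histone genes of 1 family have similar coding sequences, and whether this affected read assignment was not tested.

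Among the 167 genes of 12 lists that fit melanoma cells and cohesin loss, 127 had a start in an anchor. Of these, 8 had one in a hub (6.30%, 2.76 to 12), beside 3.38% of all 7897 protein-coding genes with an anchor. The lists were chosen with earlier results of these data known, so shares of listed genes are a description. A hub lay at SNAI2, a neural crest and mesenchymal transcription factor, with 16 loops in WT and 8 in STAG2-KD, all to the left in both. SPRY2, a feedback inhibitor of ERK signaling, had 19 and 13. LMNA, which encodes lamins A and C, had 12 and 8, and CD44, a hyaluronan receptor, had 12 and 7. These 4 had fewer loops in STAG2-KD, and MYC was equal. SNAI2, LMNA and CD44 were hubs by the WT list alone, so their lower numbers in STAG2-KD followed from the rule. IRF1, an interferon-regulated transcription factor, had 7 loops in WT and 12 in STAG2-KD, 4 of them shared. It was a hub by the STAG2-KD list alone, so this order also followed from the rule. STAG1, the paralog of STAG2, had 12 and 13, and BRD2, a reader of acetylated histones, had 13 and 15. BRD2 shares its hub with HLA-DMA, and reached the antigen-processing genes TAP1 in WT alone, PSMB8 in STAG2-KD alone and PSMB9 in each list through different loops. No start of the listed pigment, AP-1, TGF-beta, mesenchymal and migration or NF-kappaB genes lay in a hub.

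More of the listed genes were partners of hubs than had a start in one. A start in a partner was found for 45 of the 127 (35.4%, 27.2 to 44.4), beside 19.7% of all protein-coding genes with an anchor. Since the lists were chosen with earlier results of these data known, this difference is a description and no test of enrichment. MITF, the master regulator of melanocytes, was reached by 5 hubs in WT and by 2 in STAG2-KD. SOX10 was reached by 3 and 4, PMEL, a melanosome protein, by 3 and 2, and of the AP-1 genes JUN by 3 and 2 and MAFF by 2 and 4. Summed over the listed genes, 71 pairs of hub and gene in WT stood against 65 in STAG2-KD, while over all genes there were 1743 and 1802. By list, partners were 7 of 11 melanocyte lineage regulators, 6 of 11 ERK feedback genes (among them DUSP6, SPRY1, SPRY4 and ETV4), 3 of 8 pigment genes, 3 of 9 AP-1 factors and 5 of 12 growth and cell cycle genes. The counts were 4 of 9 for mesenchymal and migration factors, 5 of 13 for cytoskeleton and adhesion, 4 of 14 for histone acetylation and 4 of 15 for the interferon pathway. The lowest were 2 of 8 for the TGF-beta pathway, 2 of 11 for the NF-kappaB pathway and 0 of 6 for cohesin and CTCF.

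Few hubs were direct neighbours. Joining hubs that started within 25 kb of each other gave 609 clusters, 35 of which held 2 or more hubs, 75 hubs in all (11.6%). The largest, at chr2:12425001-12480000 upstream of TRIB2, held 4 hubs with 22, 17, 43 and 12 loops in WT and with 12, 6, 35 and 6 in STAG2-KD. All 4 had fewer loops in STAG2-KD, and their sum went from 94 to 59. Those with 17 and 12 loops in WT were hubs by the WT list alone, so their lower numbers in STAG2-KD followed from the rule. The TRIB2 promoter and its neighbour at chr2:12840001-12845000 went together from 56 to 51. That neighbour, with 12 and 9 loops, was also a hub by the WT list alone.

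Next came 3 clusters of 3 hubs each. Inside MITF, at chr3:69950001-69995000, the hubs went from 12 to 3, from 10 to 6 and from 10 to 7 loops, and their sum from 32 to 16. At ZNF217, a zinc finger gene on chromosome 20, the sum went from 38 to 33, and the promoter hub with the CTCF motif printed above had 16 loops in each list, all to the right. At MYL12A and MYL12B, which encode regulatory light chains of myosin, the sum went from 33 to 39. Each of the 3 hubs in MITF had fewer loops in STAG2-KD, while the clusters at ZNF217 and MYL12A each held a hub with equal numbers. All 3 in MITF were hubs by the WT list alone, so their lower numbers in STAG2-KD followed from the rule. The other 2 clusters also held hubs of 1 list alone, and these sums are a description.

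Over longer distances, 456 hubs (70.3%) looped to another hub, and such loops joined them into 129 networks. The networks and hubs named in this paragraph and the next were picked after their values were seen. Their sums come from the loop numbers that chose the hubs, and are a description. The largest network joined 14 hubs over 1945 kb of chromosome 7, all of them at promoters, among them MEPCE, POP7, GNB2, SRRT and PLOD3. Summed over its hubs, so that a loop between 2 of them counts at both, it had 162 loop ends in WT and 167 in STAG2-KD, with 23 of 28 WT loops between hubs shared. In contrast, the 12 hubs over 1455 kb of chromosome 5 near ANKRD55, MAP3K1, GPBP1 and ACTBL2 held 1 promoter hub only and went from 168 loop ends to 117. The 9 hubs around TRIB2 went from 217 to 175, the 10 around MYC from 174 to 130 and the 7 near ARL6IP5 and MITF, none at a promoter, from 73 to 47.

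Other networks had more loop ends in STAG2-KD. The 11 hubs of the histone genes on chromosome 6 went from 107 to 137 loop ends, which count the 21 loops between hubs in WT and the 32 in STAG2-KD at both ends. The 8 hubs around NFATC2 and ATP9A went from 62 to 100, with 10 and 21 loops between hubs, and the 9 hubs near BBS10, KRR1 and PHLDA1 on chromosome 12 from 91 to 112. BAMBI, a decoy receptor of TGF-beta signaling, lay in a network of 9 hubs with 106 and 98 loop ends, and its own promoter had 11 loops in each list, all to the right and 10 of them the same.

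**Figure D4:**
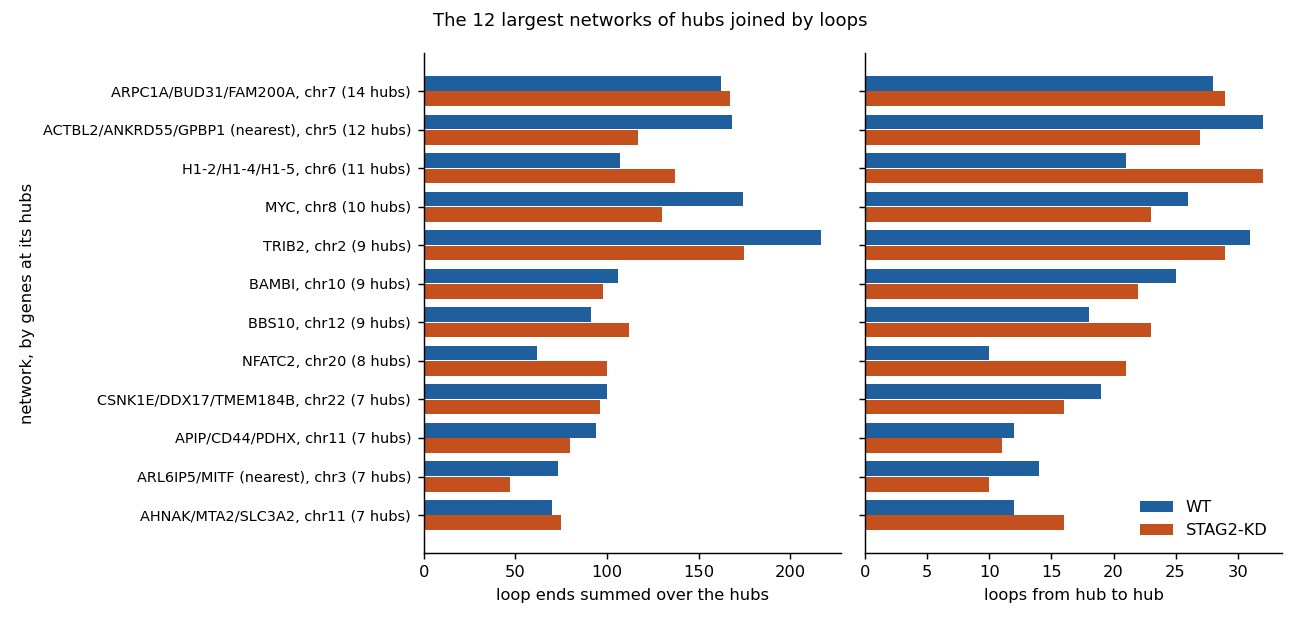
The 12 largest networks of hubs joined by loops, named by coding genes that start in their hubs or lie nearest: loop ends summed over the hubs (left) and loops from hub to hub (right), in WT (blue) and STAG2-KD (orange). On the left the orange bar is the longer one in 5 networks (histone 137, BBS10 112, NFATC2 100, chromosome 7 167 and AHNAK 75 loop ends), and the blue bar in the others.

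By chromosome, hubs numbered from 3 on chromosome 21 to 88 on chromosome 1. The ratio of loop ends in STAG2-KD to WT at hubs was above 1 on chromosomes 20 (1.13), 12 (1.11) and 1 (1.02) and below 1 on the rest, down to 0.622 on chromosome 21. Chromosomes 20 and 1 were also those where all loops were more numerous in STAG2-KD, with 1030 against 989 and 3151 against 3107.

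The busier side, which takes at least 50% by definition, took a median of 70.0% of the loops in each list, and all loops went to 1 side at 48 of the 483 WT hubs and at 38 of the 393 STAG2-KD hubs. Of the 207 hubs of both lists with unequal sides in each, 181 (87.4%, 82.1 to 91.6) had the same busier side, in lists that share many of these loops. A CTCF core motif lay in 31 hubs (4.78%, 3.27 to 6.71), beside 4.26% (3.93 to 4.60) at 2 to 9 loops and 4.13% of all 30601 anchors, and these intervals overlap. It was found in 6.73% (4.21 to 10.1) of promoter hubs and 2.97% (1.43 to 5.39) of the others, with intervals that overlap. At 2 to 9 loops the shares were 4.42% of anchors with a start and 4.12% of those without, each inside the interval of the matching hubs.

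Pooled over the loops of all hubs, the strand of the motif went with the side of the loops. At the 19 hubs with the motif on the plus strand, 83.3% (77.5 to 88.0) of 209 WT loops and 80.1% (74.3 to 85.1) of 226 STAG2-KD loops ran to the right. At the 12 hubs with it on the minus strand, 38.9% (29.9 to 48.6) of 113 and 36.3% (27 to 46.4) of 102 did. In the 618 hubs without a match the shares were 48.4% and 48.1%. Anchors with 2 to 9 loops showed the same order, with 72.6% and 69.8% to the right for the plus strand and 30.6% and 27.6% for the minus strand. The shares of WT and STAG2-KD lay within each other's intervals at hubs of either strand. These intervals treat loops of the same hub as independent, so they may be too narrow. Counted by hub, most loops ran to the right at 16 of 19 plus-strand hubs in WT (84.2%, 60.4 to 96.6). In STAG2-KD this held at 14 of 19 (73.7%, 48.8 to 90.9). At minus-strand hubs it held at 4 of 12 in WT (33.3%, 9.92 to 65.1) and 3 of 12 in STAG2-KD (25%, 5.49 to 57.2). By hub, the intervals of plus and minus overlap in each list. Only that of plus in WT leaves out an even split. The MYC promoter held a match on the plus strand, and 22 of its 25 WT loops and 21 of its 25 STAG2-KD loops ran to the right. The hubs printed above for their CTCF motif were picked because all their loops ran to the side it points to. Their direction therefore follows from the choice. Of these, ZNF217 had 16 loops in each list and CYB5B 8 in WT and 12 in STAG2-KD, all to the right. LINC00920 had 7 and 11 and PARVA 3 and 12, also to the right, and PRSS23 had 7 and 10, all to the left. The STAG1 promoter hub, with 2 matches on the minus strand, sent 7 of its 12 loops to the right in WT and 6 of 13 in STAG2-KD.

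**Figure D5:**
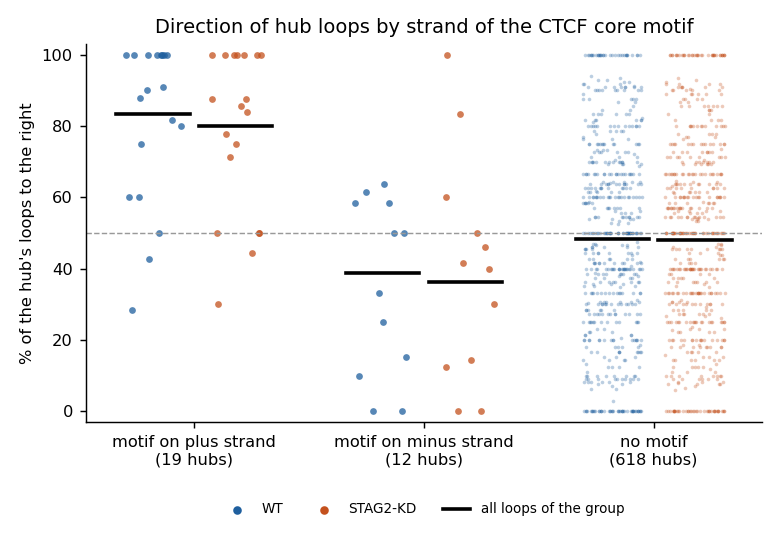
Percent of each hub's loops that ran to the right (y axis), by strand of the CTCF core motif in the anchor, with 1 point per hub and list (WT blue, STAG2-KD orange) and a small random sideways shift. Black bars are the share over all loops of the group, 83.3% and 80.1% for the plus strand and 38.9% and 36.3% for the minus strand.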

How the data were processed

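H3K27ac HiChIP loops of M14 cells were analysed from 2 lists, the first replicate of each group by its title. Per the study's methods and the submitters' processing notes, the authors mapped reads to hg19 with HiC-Pro and called peaks with hichip-peaks and loops with FitHiChIP. Versions and the treatment of neighbouring loops in the lists are not given in the sources used here, nor is whether a list joins both replicates of its group. The deposited columns hold positions in base pairs with no score. Both ends were read as 5 kb anchors, and 1 STAG2-KD line off this grid was kept.

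Gene models were those of GENCODE release 44 (version lifted to GRCh37), whose chromosome lengths equal hg19, and sequence from GRCh37. A loop was shared when both anchors were in the same bins. The CTCF core motif, AP-1 and M-box motifs were matched exactly on both strands of each anchor. Shares carry exact Clopper-Pearson intervals at 95%, which cover counting error only, and no p-value was computed, because loops are not replicates. Python 3.11.15, numpy 2.4.6, scipy 1.17.1, pandas 2.3.3, pysam 0.24.0 and matplotlib 3.10.9 were used. The functions were tested on simulated data, and all 8 planted values were recovered.

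The hubs, gene lists and comparisons were chosen with earlier results of these data known. The text names the 10 hubs with the most loops in each list, the 5 largest gains and losses, the 5 largest clusters, listed genes in hubs and the 5 genes reached by most hubs, with ties by summed loops, and other hubs where this is said. Alternatives were limits of 8 and 15 loops, loops of up to 1 Mb, each chromosome left out, a limit scaled by list size, other promoter definitions, tolerances, gaps and motifs.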

Additional observations from a re-analysis of the deposited data

How the results depend on the processing

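No paired analysis was possible because only 1 list per group was at hand, and for the same reason no replicate could be left out. Of 365 values under alternatives, 338 stayed close to the main value. Close meant within its interval for shares, 1.5 times for counts and 10% for medians and ratios. A change of direction was scored only for the ratio of hub loops in STAG2-KD to WT, where none occurred. Most of the values, 308, came from leaving out 1 chromosome, which keeps most of the hubs. With 8 or more loops there were 1279 hubs in 1148 clusters, 18 listed genes in hubs, 34.6% of partners with a start, 50.2% of STAG2-KD hub loops shared and a median distance of 135 kb in both lists. With 15 or more there were 138 hubs in 136 clusters, 25.4% of them in both lists, 4 listed genes, 28.8% of partners with a start, 49.9% of WT and 56.5% of STAG2-KD hub loops shared and a median distance of 205 kb in both lists. With coding starts only, 33.3% of hubs and 20.4% of partners had a start, and with starts within 5 kb, 64.9% and 54.4%. Allowing each anchor to differ by 1 bin raised sharing to 52.4% of WT and 58.0% of STAG2-KD hub loops, and by 2 bins to 58.3% and 64.6%. A stricter CTCF motif was found in 0.154% of hubs, and a relaxed one, chosen after seeing the data, in 9.40%. With the relaxed motif, 76.0% of WT loops ran to the right for the plus strand and 42.1% for the minus strand. The median over hubs was 81.8% (plus, 32 hubs) and 50% (minus, 27 hubs) in WT, and 76.4% and 40% in STAG2-KD. Of 308 values with a chromosome left out, 307 stayed close, and without chromosome 17 partners with a start were 32.0%. The lists give no score, so how far an absent loop lay from the caller's limit is unknown, and hub membership near 10 loops and differences of a few loops are not firm.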
